A study of Saccharomyces cerevisiae with 119 samples.

Results

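The small subunit processome is the large particle that assembles on nascent ribosomal RNA in the nucleolus and starts the making of the small ribosomal subunit. Transcript levels of 45 yeast genes that encode its proteins were examined, taken by systematic name from a table of 6685 genes, a rule that uses no measured value. The rows carried the expected symbols for all 45, among them UTP4 (YDR324C), ENP1 (YBR247C) and DHR2 (YKL078W), and each gene has 1 coding exon in the R64 annotation. The level of every gene was measured by RNA-seq of poly(A) RNA, given as estimated counts per gene.

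The series held 119 libraries from a strain experiment and a mutant experiment. In the strain experiment, 8 homozygous diploid strains of Saccharomyces cerevisiae were sampled unstressed, after 30 min in 5% ethanol and after 45 min in 0.4 M NaCl. The strains were the S288c-derived laboratory strain (labelled DBY8268), the oak isolates YPS163 and YPS606, the vineyard isolates M1 and M22, the coconut isolate Y10, the clinical isolate YJM308 and the distillery isolate YJM1129. Each strain and treatment had 3 libraries, except Y10 in ethanol with 2, which gave 71. In the mutant experiment, YPS606 wild type and 3 homozygous deletion mutants of it were sampled under the same treatments with 4 cultures each, 48 libraries. The mutants lacked both MSN2 and MSN4 (msn2/4), SKN7 or YAP1, all of which encode stress-responsive transcription factors, and the deleted genes were replaced by drug-resistance cassettes. Per the study's methods, 1 culture gave the unstressed sample and was then split for ethanol and salt, so libraries of a strain with the same number share a culture, and the ethanol and salt responses share their unstressed libraries.

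Total counts were 7726938 to 17964859 per library in the strain experiment and 8174188 to 18253411 in the mutant experiment. In the deletion mutants, the deleted genes had 0 to 7 counts in their own libraries. The YPS606 ethanol library of replicate 3 had the lowest normalization factor, 0.5135. Leaving it out left 45 members called lower in the mean ethanol response and 360 of the strain-by-strain ethanol calls. All 3 Y10 salt libraries carry titles that differ from their descriptions. Replicate 1 is titled as an ethanol library beside a treatment label that reads NaCl, and was used as salt, and the titles number replicates 2 and 3 as 1 and 2. Their pairing with the other Y10 cultures is therefore in doubt, and without the replicate block 43 members were called lower in Y10 in salt, as with it. The study's methods say that a Y10 ethanol sample turned out to be a mix-up. For replicate 1 the share of counts on the 45 genes was 0.517%. In the other Y10 salt libraries it was 0.598% and 0.644%, and the Y10 ethanol mean was 0.0672%. That share is made of the genes under study, so it is no independent check of the treatment. Leaving out replicate 1 of Y10 in salt kept 45 members called lower in the mean salt response.

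The processome forms around the U3 snoRNP, an RNA-protein particle whose RNA pairs with the ribosomal RNA precursor. The UTP-A complex binds the start of the precursor first, the UTP-B complex and the Mpp10 complex follow, and helicases, a GTPase and many single factors then remodel and cleave the RNA. Making ribosomes is among the most costly tasks of a growing yeast cell, and the genes for this machinery are known as a regulon that is turned down together when cells meet stress. Upstream of many of these genes lie the promoter elements PAC, with the core GATGAG, and RRPE, with the core AAAATTTT. In published work the repressors Dot6 and Tod6 bind PAC and Stb3 binds RRPE.

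The promoters of the 45 genes were read first, from the reference genome of S288c alone. The upstream sequences of the other strains, YPS606 among them, were not read. In the 250 bases before the start codon in the RefSeq R64 genome, both strands searched, GATGAG was found for 40 of 45 members (88.89%) against 17.05% of 5987 genes with such a window. The longer form GCGATGAG, which contains GATGAG, was found for 23 members (51.11%) against 3.842% of all genes. AAAATTTT, which reads the same on both strands, was found for 34 members (75.56%) against 8.652%, and AAAAATTTT, which contains it, for 28 (62.22%) against 6.748%. Both cores were present for 32 members (71.11%) against 4.092% of all genes, and neither for EMG1, UTP22 and UTP30 (6.667%) against 78.39%. CCCCT, the core of the stress element that Msn2 and Msn4 bind, was found for 6 members (13.33%) against 18.79% of all genes. A match describes these letters and is not evidence of a bound site.

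The windows of 8 members are printed from base 160 to base 61 before the start codon, on the strand of the gene, with each GATGAG or its reverse complement CTCATC and each AAAATTTT in capitals. ENP1 and NOP14 are shown because their transcripts fell most in ethanol on average, DHR2, HCA4 and ENP2 because they fell most in ethanol in wild type of the mutant experiment and carry GATGAG 3 or 4 times, NOC4 because it also carries it 3 times and fell much less there, and KRR1 and UTP22 because theirs fell least on average.
ENP1 (chrII:714516-714615, reverse strand): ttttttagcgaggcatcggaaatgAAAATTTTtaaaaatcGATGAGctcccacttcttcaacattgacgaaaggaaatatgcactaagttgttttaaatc
NOP14 (chrIV:190647-190746, reverse strand): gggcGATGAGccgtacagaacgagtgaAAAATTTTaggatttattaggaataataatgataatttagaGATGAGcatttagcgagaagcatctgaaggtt
DHR2 (chrXI:288685-288784, forward strand): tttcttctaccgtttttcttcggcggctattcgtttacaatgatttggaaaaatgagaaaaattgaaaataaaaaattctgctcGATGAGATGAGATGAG
HCA4 (chrX:383677-383776, forward strand): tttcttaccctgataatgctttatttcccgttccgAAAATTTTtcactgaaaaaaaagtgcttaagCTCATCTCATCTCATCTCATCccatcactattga
ENP2 (chrVII:781607-781706, forward strand): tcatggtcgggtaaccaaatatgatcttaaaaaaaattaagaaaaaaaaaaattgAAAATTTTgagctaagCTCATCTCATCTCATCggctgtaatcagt
NOC4 (chrXVI:821484-821583, reverse strand): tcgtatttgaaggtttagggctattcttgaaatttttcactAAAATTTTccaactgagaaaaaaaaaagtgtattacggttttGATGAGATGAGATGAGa
KRR1 (chrIII:23440-23539, reverse strand): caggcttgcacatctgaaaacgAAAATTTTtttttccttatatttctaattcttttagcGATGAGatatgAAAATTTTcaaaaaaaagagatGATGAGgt
UTP22 (chrVII:662198-662297, forward strand): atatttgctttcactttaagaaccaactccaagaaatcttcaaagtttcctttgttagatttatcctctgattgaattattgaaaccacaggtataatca
In DHR2, HCA4, ENP2 and NOC4 the GATGAG copies overlap in tandem, as pairs of copies do upstream of UTP8, NAN1, UTP18, RRP5 and RCL1, while ENP1 holds 1 copy and NOP14 2 separate copies, each gene with 1 AAAATTTT. KRR1 holds each core 2 times although its fall in ethanol was among the smallest, and UTP22 holds none of either.

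**Figure D1:**
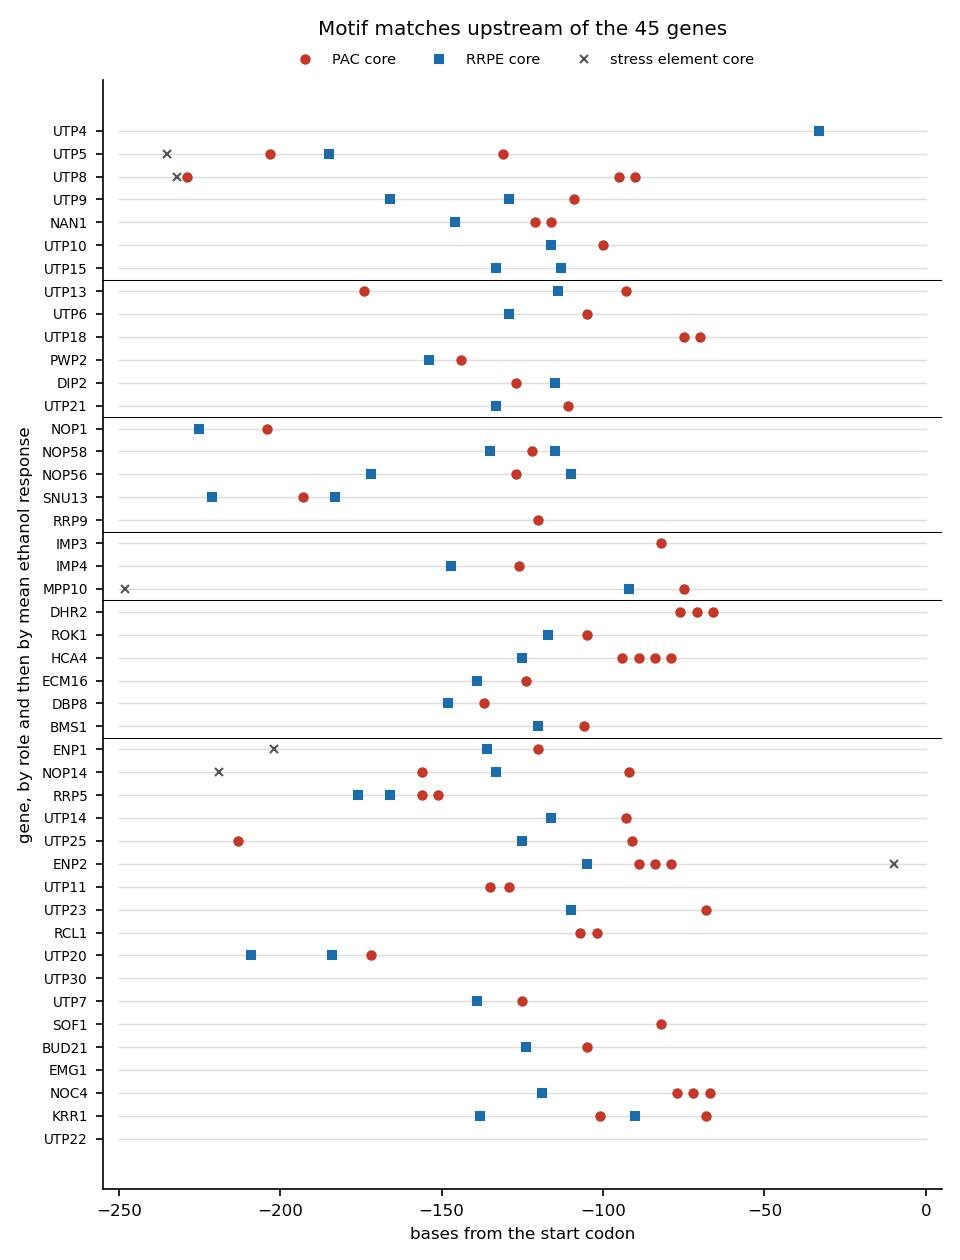
Positions of the promoter motifs upstream of the 45 genes, with the distance from the start codon in bases on the x axis and 1 row per gene, grouped by role. Marks stand for the PAC core (GATGAG), the RRPE core (AAAATTTT) and the stress element core (CCCCT). Of the 45 rows, 40 carry a PAC core and 34 an RRPE core, while 6 carry the stress element core.

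In unstressed cells the members differed widely in level per kb of coding length, given in CPM, the count rescaled to a common library size after TMM scaling, divided by coding length. CPM is relative to the library, so fewer transcripts per cell and a smaller share of the RNA cannot be told apart. Over the 24 unstressed libraries of the strain experiment, the median gene of the list stood at 98.67 CPM per kb. The lowest were DHR2, a DEAH-box helicase (median 39.1, range 28.9 to 81.5 CPM per kb), and ECM16, another DEAH-box helicase that frees U3 from the precursor (51.8, range 31.4 to 79.8). The highest were SNU13, which binds the kink-turn of the U3 RNA (1297, range 823 to 2270), and NOP1, the methyltransferase of the box C/D particles (1095, range 665 to 2183). Both are shared with other snoRNPs, as are NOP56 (420.0) and NOP58 (383), which came next. SNU13 and NOP1 overlapped in range, as did DHR2 and ECM16, so neither order is beyond the spread of the libraries.

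All 45 genes fell in ethanol. Averaged over the 8 strains, the fitted log2 change had a median of -4.00 over the members, a 16.0-fold fall, while the median over all genes tested was 0.05. All 45 were called lower by edgeR's quasi-likelihood test at a false discovery rate of 0.01, which 40.8% of the 6090 genes tested were too. Because that share is large, the size of the change describes the group better than the count. The p-values and standard errors measure the spread between replicate libraries within a strain and treatment, and not the spread between the 8 strains. For ENP1 the SD of the log2 ethanol change over the 8 strains was 1.51.

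ENP1, a factor that joins early and stays with the pre-40S particle into the cytoplasm, fell most. It had 150.4, 199 and 279.9 CPM as the lowest, median and highest of the unstressed libraries, and 1.16, 3.54 and 47.6 CPM in ethanol. No ethanol library reached the lowest unstressed one, and the fitted change was -5.30 ± 0.08 (SE) on the log2 scale, 39.4-fold (adjusted p = 2.75e-49 by edgeR). NOP14, which works together with NOC4 in the particle, had 117, 173 and 269 CPM unstressed and 1.10, 3.97 and 69.3 CPM in ethanol, a change of -5.24 ± 0.09 or 37.9-fold. NOP1 had 654, 1077 and 2148 CPM unstressed and 12.9, 28.3 and 72.6 CPM in ethanol, -5.24 ± 0.10 or 37.7-fold. The highest ethanol libraries of all of these genes were those of S288c, described with the strains.

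At the other end, UTP22, which also sits with Ifh1 and casein kinase II in a complex that links processome and ribosomal protein gene expression, had 299, 348 and 439.5 CPM unstressed and 43.6, 84.8 and 201.9 CPM in ethanol. Its groups did not overlap either, and it fell by 1.95 ± 0.05 on the log2 scale, 3.87-fold (adjusted p = 1.42e-37). KRR1, a KH-domain RNA-binding factor, had 81.4, 117.5 and 151.4 CPM unstressed and 11.0, 27.2 and 66.8 CPM in ethanol (-2.14 ± 0.07, 4.40-fold). MPP10, the scaffold of the Mpp10 complex, had 120.1, 159.7 and 263.7 CPM unstressed and 10.5, 20.6 and 59.6 CPM in ethanol (-2.97 ± 0.05, 7.81-fold). Across the 45 genes the range of falls was therefore wide, although every member was called.

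By role, the medians of the ethanol change lay close together, at -3.92 for the 7 UTP-A genes, -4.26 for the 6 UTP-B genes, -3.72 for the 5 U3 snoRNP genes, -3.38 for the 3 genes of the Mpp10 complex, -4.14 for the 6 enzymes, which are helicases and a GTPase, and -3.98 for the 18 other factors. Within UTP-A, UTP4 fell most (-4.39 ± 0.09) and UTP15 least (-3.35 ± 0.05), and both are WD-repeat proteins. Within UTP-B, UTP13 changed by -4.98 ± 0.09 and UTP21 by -3.66 ± 0.07. Among the U3 snoRNP genes RRP9, the protein particular to U3, fell least (-3.43 ± 0.08), close to SNU13 (-3.52 ± 0.07). IMP3, which helps U3 pair with the precursor, changed by -4.07 ± 0.11. Among the enzymes, DHR2 fell most (-5.06 ± 0.12, 33.4-fold) and the GTPase BMS1 least (-3.68 ± 0.08). The spread within each group of roles was wider than that between their medians.

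In salt the 45 genes were lowered too, and by less. All were again called lower in the mean over strains, which 41.9% of all genes tested were, with a median of -1.10 on the log2 scale against -0.06 for all genes. KRR1 fell most (-1.94 ± 0.07, 3.85-fold), with 11.5, 34.8 and 65.6 CPM as the lowest, median and highest salt libraries, all below its lowest unstressed library. UTP30, a factor that cells can live without, and BUD21, another non-essential UTP protein, followed with -1.88 ± 0.07 and -1.76 ± 0.09. UTP22 fell least (-0.36 ± 0.05, 1.28-fold, adjusted p = 4.93e-09), with 158.0, 265 and 518 CPM in salt, a range that took in all of its unstressed libraries. By role, the medians were -1.01 for UTP-A, -0.81 for UTP-B, -1.11 for the U3 snoRNP, -1.41 for the Mpp10 complex, -1.42 for the enzymes and -1.18 for the other factors.

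Within the roles, the members at either end in salt were in part those of ethanol. In UTP-A, UTP9 had the largest fall (-1.23 ± 0.09) and UTP15 the smallest (-0.65 ± 0.05). In UTP-B, UTP6 fell by 1.41 ± 0.08 and UTP21 by 0.61 ± 0.06. In the U3 snoRNP, NOP56 had -1.32 ± 0.07 and SNU13 -0.77 ± 0.06. The 3 genes of the Mpp10 complex ran from -1.56 ± 0.09 for IMP3 to -1.05 ± 0.04 for MPP10, and the enzymes from -1.54 ± 0.08 for DHR2 to -0.98 ± 0.06 for BMS1. UTP15, UTP21, MPP10, BMS1 and UTP22 were the least lowered of their groups under both stresses.

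The levels in ethanol and salt were then compared directly. All 45 genes were lower in ethanol than in salt, a call that 36.9% of genes tested received, with a median difference of -2.88. NOP1 (-4.22 ± 0.09, 18.6-fold) and UTP13 (-4.20 ± 0.09) differed most, and KRR1 least (-0.19 ± 0.07, 1.14-fold, adjusted p = 9.08e-03), and 44 of 45 were called without replicate 2 or 3. In YPS606 itself, KRR1 had 14.9, 13.7 and 11.0 CPM in ethanol and 15.6, 14.9 and 11.9 CPM in salt, beside 140.0, 104.7 and 120.2 CPM unstressed. The KRR1 values of both stresses overlapped in that strain, and those of NOP1 did not, with 388, 309 and 368 CPM in salt against 29.6, 38.5 and 32.8 CPM in ethanol.

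**Figure D2:**
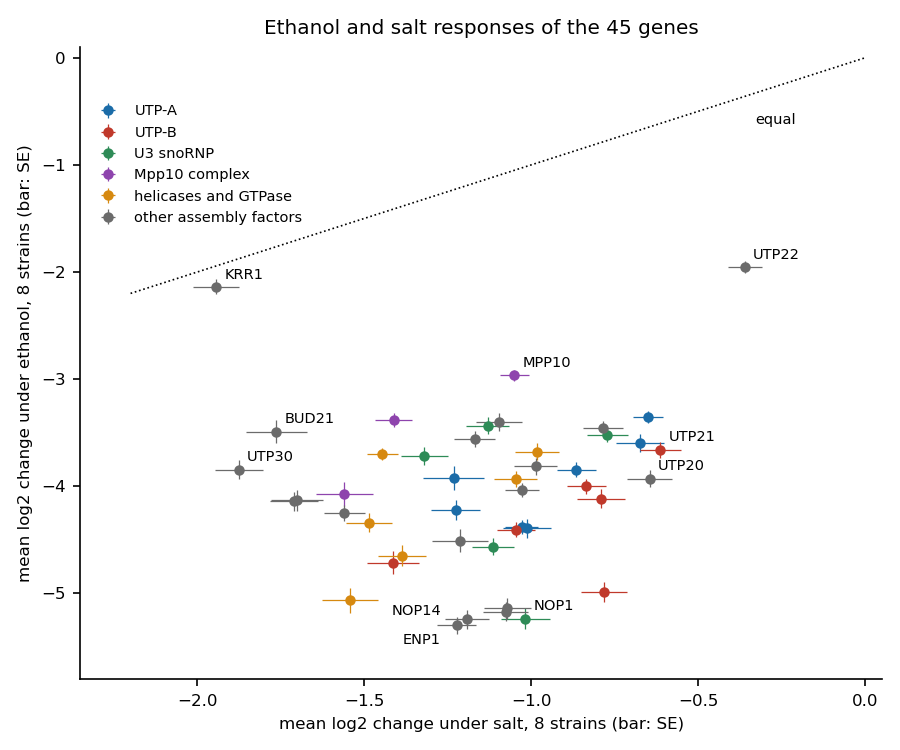
Mean log2 change over the 8 strains in salt (x axis) and in ethanol (y axis) for each of the 45 genes, with standard errors as bars, colours for the roles and a dotted line where both changes are equal. All points lie at negative values on both axes, ENP1 farthest in ethanol (-5.30), KRR1 near the dotted line (-2.14 and -1.94), and UTP22 nearest to 0 on both (-1.95 and -0.36). Both axes use the same unstressed libraries.

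The share of all counts that fell on the 45 genes was next followed library by library. It was 0.937% ± 0.0320 (SD, n = 3) in unstressed YPS163 and 1.43% ± 0.242 in unstressed YJM1129, the lowest and highest strain means. In ethanol the 7 strains other than S288c fell to 0.0320% to 0.0980% over all their libraries of the strain experiment. Their means ran from 0.0381% ± 0.00739 in M22 to 0.0839% ± 0.0131 in YJM1129. S288c kept 0.295% ± 0.0508 and did not overlap with any library of these strains in that experiment. In salt the strain means ran from 0.381% ± 0.0812 in YPS606 to 0.955% ± 0.0577 in M1, whose unstressed share was 1.14% ± 0.0380.

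**Figure D3:**
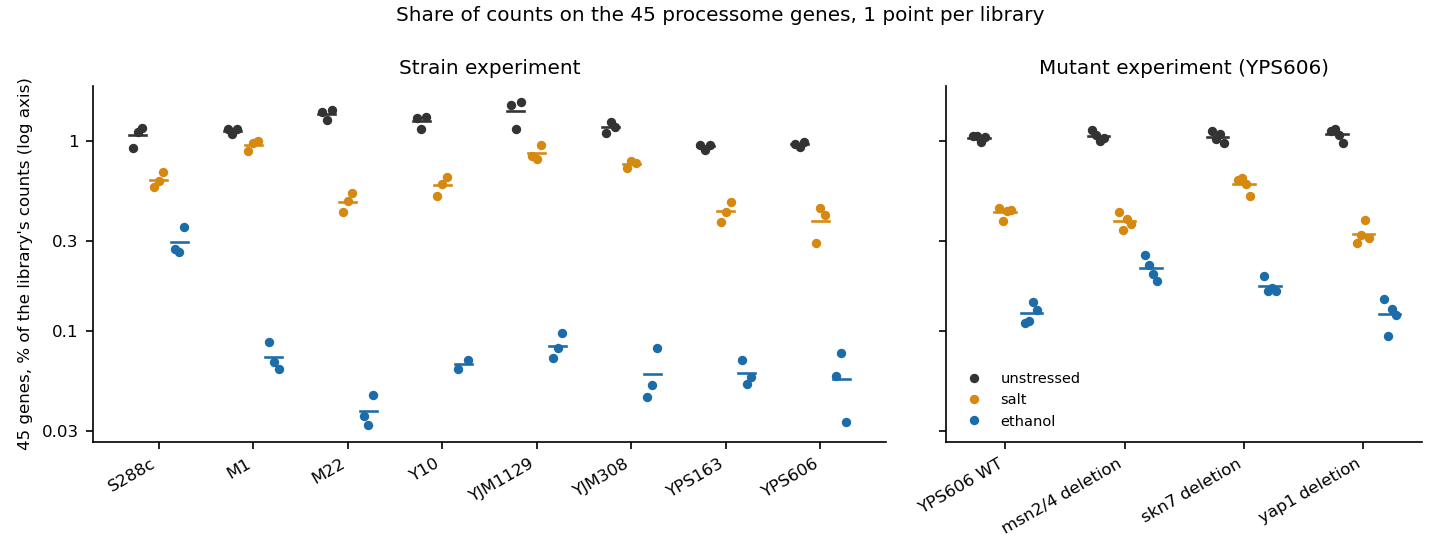
Share of counts on the 45 genes in percent (log axis) for every library, by strain and treatment in both experiments, with a point per library and a line at the mean. In ethanol in the strain experiment, the S288c libraries sit at 0.295% on average, above all other strains there (0.0320% to 0.0980%). In salt the M1 mean is the highest (0.955%), although the YJM1129 library of replicate 3 (0.953%) lies above M1 replicate 1 (0.890%).

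Strain by strain, all 45 genes were called lower in ethanol in each of the 8 strains. The calls stood beside backgrounds of 28.3% of genes tested in S288c, 30.1% in M1, 33.2% in M22, 31.7% in Y10, 32.8% in YJM1129, 31.0% in YJM308, 32.4% in YPS163 and 31.2% in YPS606. The median log2 change over the members was -1.67 in S288c and -3.74 in YJM308, -3.96 in YJM1129, -4.17 in M1, -4.32 in YPS606, -4.44 in YPS163, -4.59 in Y10 and -5.54 in M22. In every strain each gene's ethanol libraries lay below all unstressed libraries of the same strain. This separation and the next were not counted over all genes, so they have no background. Across all strains, 44 of 45 genes had no ethanol library as high as any unstressed one. The exception was ECM16, with 102, 104 and 127.5 CPM in S288c in ethanol against 152, 119 and 154 CPM in unstressed YPS606.

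**Figure D4:**
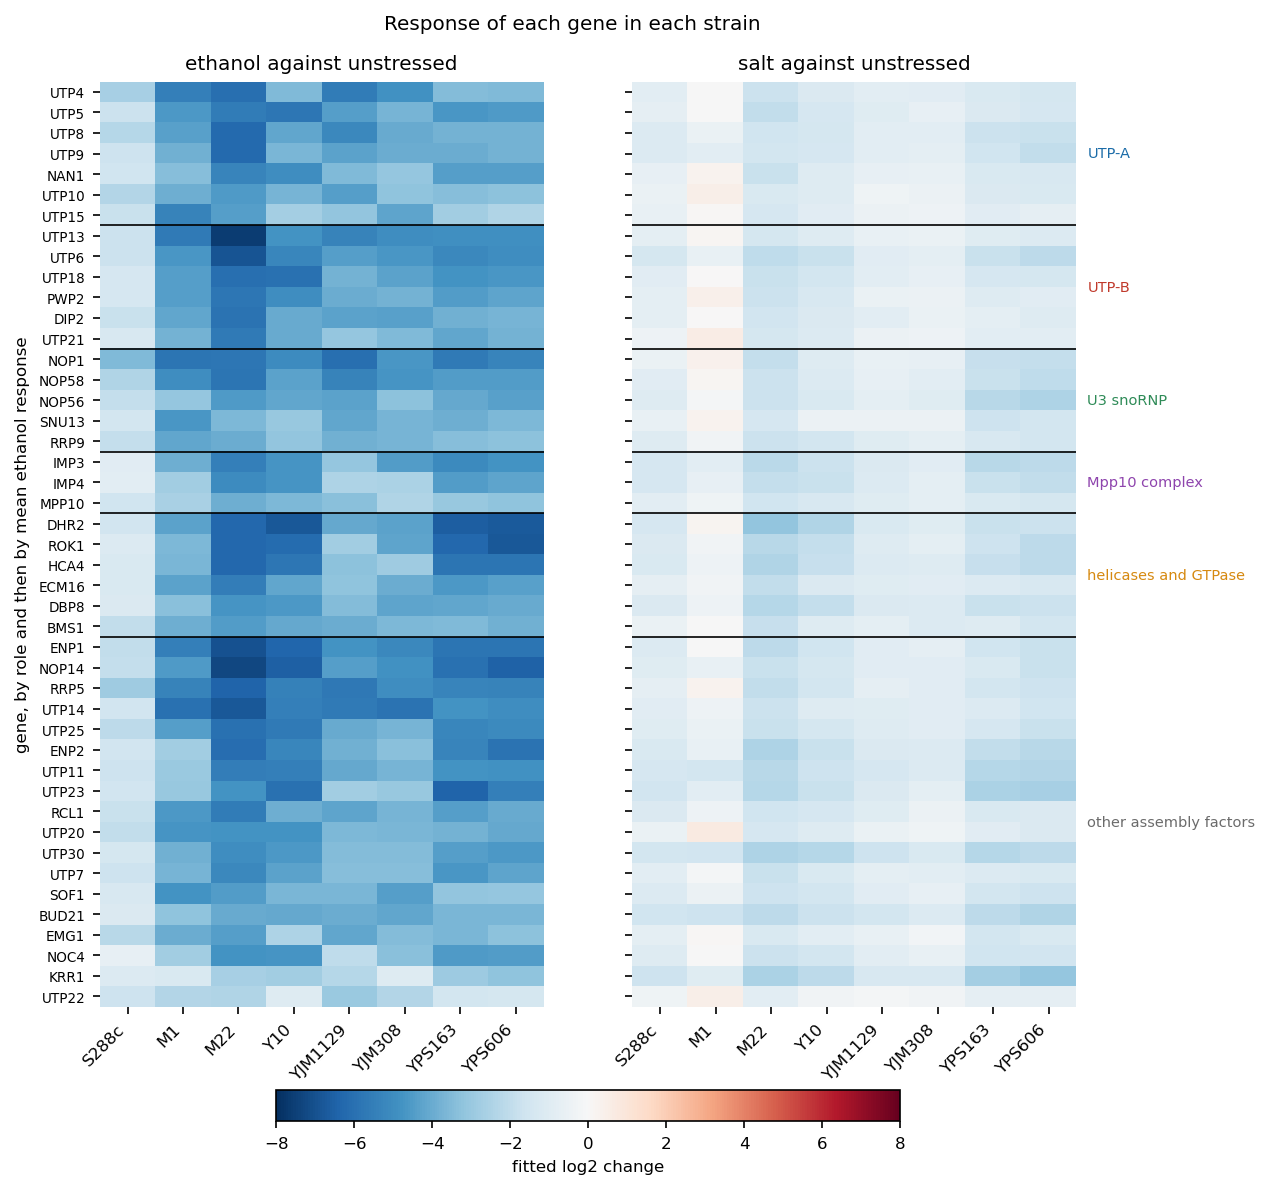
Fitted log2 change of each of the 45 genes (rows, by role) in each of the 8 strains (columns), for ethanol and for salt, on a common colour scale. The scale runs from blue for falls to red for rises. The S288c column is the palest in ethanol (median -1.67) and M22 the darkest (-5.54), and in salt the M1 column is near 0 (median -0.14).

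S288c stood out in ethanol. Its response was compared with the mean response of the 8 strains, S288c included, by a contrast within the fit, and 44 of 45 genes fell by less than the mean, a call that 22.9% of genes tested received in that direction. The median difference was 2.33 on the log2 scale, 5.03-fold, and the culture medians of the S288c response ran from -1.88 to -1.50. The largest differences were those of UTP14, which stimulates the helicase Ecm16 (3.59 ± 0.20, 12.1-fold), ROK1, a DEAD-box helicase (3.57 ± 0.21, 11.9-fold), and DHR2 (3.51 ± 0.25, 11.4-fold). DHR2 had 20.1, 22.7 and 27.8 CPM in S288c ethanol, whereas YPS163 had 0.0832, 0.685 and 2.10 CPM, from unstressed levels of 67.1, 74.7 and 64.6 against 86.3, 94.2 and 73.3 CPM. UTP22 was the exception (0.29 ± 0.13, adjusted p = 0.0655).

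The difference in S288c ran through all the roles, with medians of 1.92 in UTP-A, 2.87 in UTP-B, 1.81 in the U3 snoRNP, 2.53 in the Mpp10 complex, 2.92 in the enzymes and 2.38 in the other factors. In UTP-A it was largest for UTP5 (2.66 ± 0.14) and smallest for UTP10 (1.27 ± 0.19). UTP-B ran from UTP13 (3.28 ± 0.20) to DIP2 (2.25 ± 0.16), the Mpp10 complex from IMP3 (3.17 ± 0.24) to MPP10 (1.37 ± 0.12), and the U3 snoRNP from NOP58 (2.15 ± 0.17) to RRP9 (1.55 ± 0.18). BMS1 had the smallest difference of the enzymes (1.69 ± 0.18). Within S288c, NOP1 still fell most (-3.55 ± 0.23, 11.7-fold), from 684, 853 and 654 CPM to 60.1, 54.0 and 72.6 CPM, and NOC4 least (-0.63).

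M22 lay at the other end. In ethanol 39 of 45 genes fell by more than the mean of the 8 strains (background 10.7%), with a median difference of -1.36. All 6 UTP-B genes were among them and 2 of the 5 U3 snoRNP genes. UTP13 differed most (-2.62 ± 0.27, 6.13-fold), and its fall within M22 was 194-fold (-7.60 ± 0.29). The lowest count of UTP13 in any library was 3, so its largest fold changes are imprecise. UTP9 led UTP-A (-2.3 ± 0.30), NOP14 the other factors (-2.02 ± 0.25), HCA4 the enzymes (-1.92 ± 0.22), IMP4 the Mpp10 complex (-1.64 ± 0.18) and NOP58 the U3 snoRNP (-1.31 ± 0.18). NOP14 had 228, 213 and 217.5 CPM in unstressed M22 and 1.21, 1.16 and 1.9 CPM in ethanol. The members not called were NOP1, RRP9, SNU13, BUD21, KRR1 and UTP23, and SNU13 was closest to the mean (-0.06 ± 0.17). Against the mean of the 7 strains without S288c, an alternative chosen after the data were seen, 32 genes were called (background 7.77%), with a median of -1.0.

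The other 6 strains had members on both sides of the mean in ethanol, and some genes recurred. In Y10, 18 genes fell by more (background 12.4%), UTP23 the most (-1.85 ± 0.33), and EMG1, UTP22, UTP4 and UTP15 fell by less (background 9.24%). In YPS163, 12 fell by more (10.2%), led by UTP23 (-2.3 ± 0.31), while UTP4, UTP15 and UTP22 fell by less (10.5%). In YPS606, 10 fell by more (6.9%), led by ROK1 (-2.11 ± 0.30) and ENP2 (-1.65), and the same 3, UTP15, UTP4 and UTP22, fell by less (9.72%). UTP4, UTP15 and UTP22 were thus called on the same side in both oak isolates and in Y10. The counts of members that fell by less lay near or under the background in each of these strains. With S288c left out of the mean, 10 genes fell by more in Y10 (10.0%) and 5 by less (6.95%), with a median of -0.19. In YPS163, 6 then fell by more (7.04%) and 6 by less (8.69%), with a median of -0.03. YPS606 had 4 that fell by more (4.04%) and 6 by less (7.03%), and its median moved from -0.19 to 0.14.

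UTP4, UTP15 and UTP22 fell by more than the mean, and ROK1, UTP23 and ENP2 by less, in at least 1 of YJM1129, M1 and YJM308. In YJM1129, 9 genes fell by more (13.3%), among them UTP4 (-1.19) and UTP22 (-1.04), and 11 by less (15.1%), led by ROK1 (1.88 ± 0.21). In M1, 8 fell by more (9.44%), UTP15 the most (-1.99 ± 0.14), and 9 by less (6.58%), led by ENP2 (1.45 ± 0.17), UTP23 (1.07) and ROK1 (1.03). In YJM308, UTP15, SOF1 and DBP8 fell by more, a count near its background (8.13%). In that strain 8 genes fell by less (9.34%), led by the helicase gene HCA4 (1.49 ± 0.19). Against the mean of the 7 strains without S288c, 21 genes fell by less in YJM1129 (17.9%), 20 in YJM308 (11.1%) and 14 in M1 (9.33%).

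The example of UTP22 shows this in single libraries. In ethanol it had 154.5 and 201.9 CPM in Y10, 130.9, 140.2 and 132 CPM in YPS606 and 135.6, 114.9 and 155.9 CPM in YPS163, while YJM1129 had 43.6, 49.6 and 58.5 CPM and M1 74.4, 74.8 and 57.3 CPM. The libraries of Y10 and the oak isolates did not overlap with those of YJM1129 and M1, and unstressed levels of all of them lay between 316.5 and 439.5 CPM. UTP15 differed in the same manner, with a change of -5.34 ± 0.16 in M1 (40.5-fold) and -2.43 ± 0.14 in YPS606. Over the 7 strains other than S288c, ROK1, UTP23 and HCA4 had the widest ranges of the log2 change (3.99, 3.68 and 3.41), and BMS1, BUD21 and RRP9 the narrowest (0.92, 0.97 and 1.00).

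Salt split the strains differently. In M1, 11 members were called lower (background 19.9%) and UTP20, UTP21 and UTP22 were called higher (18.2%), with a median of -0.14 and culture medians between -0.219 and -0.159. The first count lay near its background and the second under it. UTP20, a very large scaffold protein, had 369, 448 and 323 CPM unstressed and 635, 588 and 624 CPM in salt (0.69 ± 0.19, adjusted p = 2.00e-03). UTP21 changed by 0.59 ± 0.17 (adjusted p = 3.63e-03) and UTP22 by 0.45 ± 0.14 (adjusted p = 6.49e-03). With library totals in place of TMM factors UTP20, UTP21 and UTP22 had 0.39, 0.28 and 0.14 and were not called, and of the 3 only UTP20 was called in any fit without 1 replicate number. ENP1 had 184, 185.5 and 166.6 CPM unstressed and 173, 175 and 183 CPM in salt, and its groups overlapped. The members that fell most in M1 were BUD21 (-1.63 ± 0.25), UTP30 (-1.52 ± 0.20) and UTP11 (-1.44 ± 0.20), and the others called lower were KRR1, UTP23, UTP9, IMP3, IMP4, ENP2, NOP14 and DBP8. Without any 1 replicate number, 5 members were called lower.

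Compared with the mean salt response of the 8 strains, 41 of 45 genes fell by less in M1 (background 17.4%), with a median difference of 0.95. DHR2 differed most (1.79 ± 0.22, 3.46-fold, adjusted p = 2.53e-09), with 95.6, 86.9 and 83.0 CPM in M1 salt against 70.8, 86.6 and 66.2 CPM unstressed. NOP1 (1.38 ± 0.20) led the U3 snoRNP, RRP5 (1.34 ± 0.18), which takes part in both subunits, and UTP20 (1.34 ± 0.18) the other factors, UTP21 (1.20 ± 0.16) UTP-B, UTP10 (1.15 ± 0.19) UTP-A and IMP4 (0.76 ± 0.15) the Mpp10 complex. The 4 members not called were BUD21 (0.13), UTP11 (0.27), UTP30 (0.36) and UTP9 (0.38). With library totals in place of TMM factors 18 of the differences were called.

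M22 again lay at the opposite end. All 45 genes were called lower in salt (background 28.0%, median -1.75), and 32 fell by more than the mean of the 8 strains (11.2%, median -0.65). DHR2 had 112.0, 111.9 and 85.9 CPM unstressed and 9.47, 13.4 and 12.7 CPM in salt, a fall of 8.75-fold within M22 (-3.13 ± 0.26) and a difference from the mean of -1.59 ± 0.23 (3.0-fold). All 6 of the enzymes were called, ROK1 with the smallest difference (-0.84 ± 0.19). UTP5 (-0.94 ± 0.13), PWP2 (-0.94 ± 0.19), ENP2 (-0.92 ± 0.16) and NOP1 (-0.89 ± 0.19) led their groups. The count fell to 12 without replicate 1, to 15 without replicate 2, and to 13 with library totals. Against the mean of the 7 strains without M1, 19 were called (7.93%, median -0.52).

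In the other strains 34 to 45 members were called lower in salt. These were all 45 in YPS163 (background 30.0%) and YPS606 (30.0%), 43 in Y10 (26.5%, not SNU13 and UTP22), 39 in S288c (17.0%), 38 in YJM1129 (17.0%) and 34 in YJM308 (17.8%). For 10 of the 45 genes no salt library of any strain reached any unstressed one, a separation that was not counted over all genes. KRR1 was called in 6 of the 8 strains, falling by more than the mean in YPS606 (-1.16), YPS163 (-0.75) and M22 (-0.58) and by less in M1 (1.01), YJM308 (0.64) and YJM1129 (0.66 ± 0.17). In YPS606, 13 genes fell by more than the mean (7.98%), KRR1 and NOP56 (-1.13) the most. In YPS163, 7 did (11.0%), namely NOP56, SNU13, NOP1, NOP58, UTP23, KRR1 and EMG1. In Y10, DHR2 (-0.89) and DBP8 (-0.46) fell by more, a count near its background (5.98%).

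On the other side, UTP23, UTP30, KRR1, IMP4, RCL1 and EMG1 fell by less in YJM308 (3.02%). KRR1 was the single member called in YJM1129, a count near its background (4.66%). S288c, which stood apart in ethanol, had 0 members called in salt by edgeR or DESeq2 (backgrounds 3.12% lower and 1.38% higher) and 6 at an unadjusted p under 0.05, with differences between -0.13 and 0.48. Against the mean of the 7 strains without M1, 19 members fell by less in YJM308 (5.44%). By that measure 6 fell by less in YJM1129 (7.77%) and 1 in S288c (2.97%). YPS606 then had 5 members that fell by more (4.91%), YPS163 6 (8.83%) and Y10 0 (5.81%).

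Before stress the strains differed little in these genes. Of 360 contrasts of an unstressed level with the mean of the 8 strains, 46 were called, and 10, 13 and 22 without replicate 1, 2 or 3. YJM1129 was above the mean for all 45 genes, with a median of 0.31, and 16 were called (background 12.5%), among them RRP9 (0.52). S288c had 8 members lower (12.4%), NOP1 (-0.56 ± 0.14) and UTP20 (-0.53) the most, and ECM16 higher (0.40, background 14.0%). YPS163 had 6 lower (16.5%), UTP14 the most (-0.60), and SNU13 (0.62), NOP1 (0.48) and EMG1 (0.36) higher (19.1%). In YPS606, ECM16 (-0.48), UTP14 (-0.43) and MPP10 (-0.30) were lower (13.2%). In M22, BMS1, UTP7 and MPP10 were higher (8.49%), in Y10 SNU13 was lower (-0.66 ± 0.12, background 7.83%), and in M1 DBP8 was lower (-0.29, 7.45%). Apart from the counts in YJM1129 and S288c, these counts of 1 to 6 members lay near or under what the backgrounds give for 45 genes.

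In YJM308 the members called higher were DHR2 (0.78 ± 0.14, 1.71-fold), UTP30 (0.45 ± 0.12) and UTP11 (0.41 ± 0.12), against a background of 15.3%, while EMG1 was lower (-0.40, background 11.8%). Both counts lay under their backgrounds. The 3 members called higher lie on chromosome XI, and no other member does. DHR2 had 180.0, 159.7 and 133.8 CPM in unstressed YJM308, and the next highest strain, YJM1129, had 140.2, 108 and 104. UTP11 had 101.9, 127.6 and 126 CPM and UTP30 85.6, 108 and 114 CPM in YJM308, against 103.0, 88.3 and 102.9 and 99.1, 97.8 and 110.0 CPM in YJM1129. The ranges overlapped with those of YJM1129. Over the 312 genes of chromosome XI tested, the unstressed level of YJM308 had a median of 0.77 above the mean of the strains, 1.71-fold, while the medians of its other chromosomes lay between -0.10 and 0.01. The part that this chromosome-wide shift has in the levels of these members was not tested. The stress responses compare YJM308 with itself.

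The mutant experiment compared each deletion mutant with wild type in the YPS606 background. All 45 genes were called lower in each genotype under each stress. The backgrounds in ethanol were 36.7% in wild type, 33.9% in msn2/4, 35.5% in skn7 and 36.6% in yap1, and in salt 35.2%, 35.6%, 32.8% and 34.7%. The median log2 changes in ethanol were -3.28 in wild type, -2.60 in msn2/4, -2.94 in skn7 and -3.47 in yap1, and in salt -1.56, -1.91, -1.16 and -1.93. In the wild type in ethanol, DHR2 fell most of all, from 89.4, 90.8, 87.9 and 100.3 CPM to 0.679, 0.633, 0.337 and 0.332 CPM (-7.52 ± 0.18, 183-fold), followed by HCA4 (-7.04 ± 0.19, 132-fold) and ENP2 (-6.29 ± 0.17, 78.3-fold). NOC4 and UTP8, which also carry GATGAG 3 times in the reference genome, changed by -3.26 ± 0.09 and -2.66 ± 0.11. UTP22 fell least (-0.93 ± 0.08, 1.9-fold). Without stress 0 members were called in any mutant by edgeR or DESeq2, with 0 in msn2/4, 5 in skn7 and 4 in yap1 at an unadjusted p under 0.05. Few genes were called there at all, 0.157% lower and 0.0696% higher in msn2/4, 2.31% and 4.61% in skn7 and 1.79% and 1.79% in yap1, so that 0 of 45 lies near these backgrounds.

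Loss of Msn2 and Msn4 went with a smaller fall in ethanol. The interaction contrast was above 0 for all 45 genes, with a median of 0.57, and 24 were called (background 8.26%). The culture medians were -2.68 to -2.49 in the mutant and -3.40 to -3.06 in wild type. UTP22 had 189, 191, 203 and 179.7 CPM in wild-type ethanol and 264, 269.9, 240.4 and 254 CPM in the mutant, without overlap (0.45 ± 0.11). NOP56 had 78.5, 64.9, 89.9 and 81.5 CPM against 145.5, 134, 126 and 115 CPM (0.74 ± 0.15). ROK1 had the largest contrast (1.19 ± 0.24, adjusted p = 1.44e-04), but its libraries overlapped, with 2.49, 1.20, 1.68 and 3.90 CPM in wild type and 7.15, 5.46, 7.65 and 3.0 CPM in the mutant.

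All 6 UTP-B genes were called in msn2/4, from UTP21 (0.55 ± 0.12) to UTP6 (0.99 ± 0.20), as were 3 of 7 in UTP-A, led by UTP10 (0.61 ± 0.13), 2 of 5 in the U3 snoRNP, led by NOP58 (0.76 ± 0.14), 1 of 3 in the Mpp10 complex, 3 of 6 enzymes and 9 of 18 other factors, led by NOP14 (0.83 ± 0.23). NAN1 (0.16), SOF1 (0.18) and DHR2 (0.23 ± 0.36) had the lowest values of their groups and were not called. DHR2 had at most 0.825 CPM in both genotypes in ethanol, so its contrast is imprecise. The count was 15, 14, 20 and 15 without replicate 1, 2, 3 or 4. In salt 0 members were called in msn2/4 by edgeR or DESeq2, 16 at an unadjusted p under 0.05 in edgeR, and the contrast had a median of -0.25. The backgrounds were 4.16% lower and 1.81% higher.

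Loss of Skn7 had its larger difference in salt. There 23 of 45 genes fell by less than in wild type (background 8.39%), with a median of 0.46. DHR2 had 21.6, 18.9, 22.6 and 18.8 CPM in wild-type salt and 30.8, 33.0, 37.2 and 30.6 CPM in skn7, without overlap (0.89 ± 0.15, 1.86-fold), and NOP1 had 394, 279, 409.8 and 399 CPM against 687, 514, 771 and 814 CPM (0.88 ± 0.23, 1.84-fold). By role, 4 of 5 U3 snoRNP genes, 5 of 7 UTP-A genes led by NAN1 (0.61 ± 0.14), 3 of 6 UTP-B genes led by UTP21 (0.59 ± 0.11), 2 of 3 of the Mpp10 complex led by IMP4 (0.60 ± 0.15), 3 of 6 enzymes and 6 of 18 other factors, led by UTP23 (0.74 ± 0.18), were called. BUD21 was on the other side (-0.41 ± 0.29, adjusted p = 0.313). The count was 20, 13, 15 and 10 without replicate 1, 2, 3 or 4, and 5 with library totals. In ethanol NOP56 alone was called (0.62 ± 0.15, adjusted p = 4.87e-03, background 1.51%), with 111, 114, 109 and 106 CPM in skn7, and 19 members had an unadjusted p under 0.05.

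Loss of Yap1 went the other way in salt. Of the 45 genes, 8 fell by more than in wild type (background 4.89%), with a median contrast of -0.37. DHR2 again led, with 10.5, 13.6, 13.8 and 8.96 CPM in yap1 salt, all below the wild-type libraries (-0.88 ± 0.16), and HCA4 (-0.72 ± 0.18), ECM16 (-0.63), ENP2 (-0.57), UTP4 (-0.54), DIP2 (-0.50), UTP5 (-0.44) and NOC4 (-0.42) were the others. The U3 snoRNP genes had a median of 0.29, NOP1 the highest (0.48 ± 0.23), and none of them was called. The count was 2 without replicate 1, 3 or 4, 11 without replicate 2, and 18 with library totals. In ethanol 0 members were called in yap1 by edgeR, 11 at an unadjusted p under 0.05 and 1 by DESeq2, with a median of -0.15 and backgrounds of 1.55% lower and 2.44% higher.

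**Figure D5:**
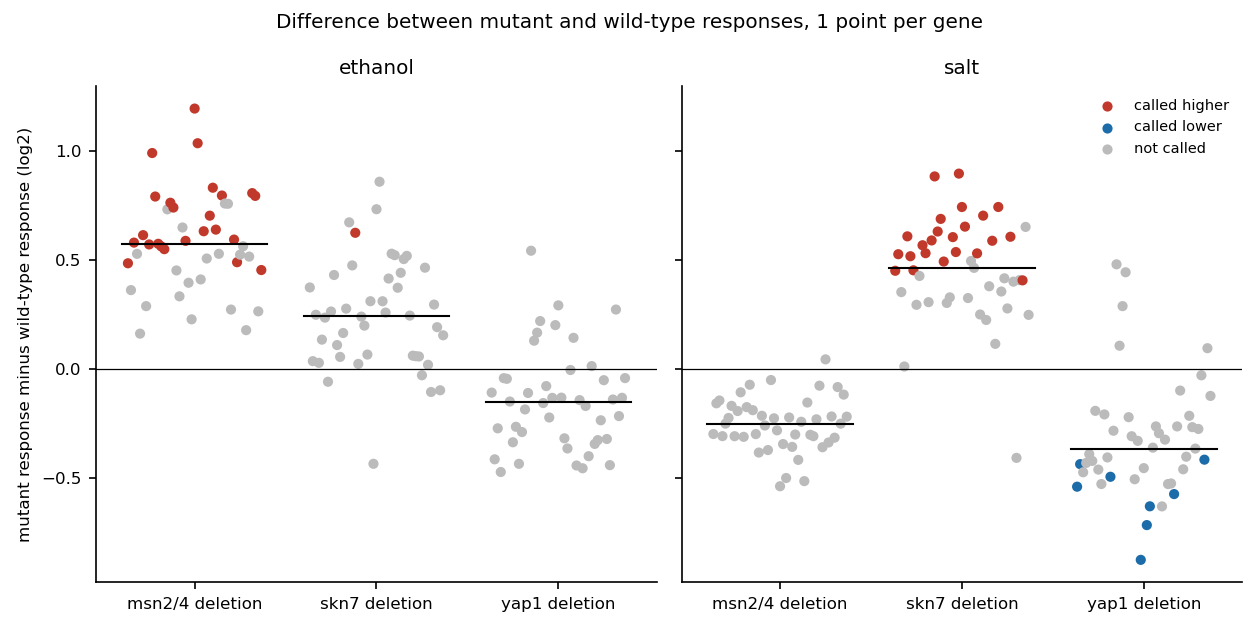
Difference of each mutant's log2 response from the wild-type response (y axis) for the 45 genes, by mutant and stress, with a point per gene, red for genes called higher, blue for genes called lower, grey for genes not called and a line at the median. Points are above 0 for msn2/4 in ethanol (24 called higher, median 0.57) and mostly so for skn7 in salt (23 called higher, median 0.46), while yap1 in salt has 8 called lower (median -0.37).

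YPS606 wild type was in both experiments, from separate cultures, so that its responses can be set side by side. The median ethanol change was -4.32 in the strain experiment and -3.28 in the mutant experiment, and 41 of 45 genes fell by less in the latter. In salt the medians were -1.63 and -1.56, and 23 of 45 fell by less. The order of the genes was much alike, with Pearson's r of 0.841 and Spearman's rho of 0.809 in ethanol and 0.900 and 0.872 in salt, across 45 genes that are not independent. Taken gene by gene, the ethanol change of the same genotype differed between the experiments by a median of 0.99. Mutants were compared with wild type within the mutant experiment alone.

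Coding length went with the salt change across the members. Spearman's rho between length and mean salt change was 0.525 across the 45 genes, against 0.112 across 5767 genes, and in single strains it ran from 0.182 in YJM308 to 0.721 in YPS163, with 0.528 in M1. The differences of strains from the mean salt response went with length in opposite directions. Across the members, rho was -0.747 in YJM308, -0.408 in YJM1129, -0.402 in M22 and -0.239 in Y10. It was 0.564 in YPS163, 0.330 in YPS606, 0.301 in M1 and 0.0257 in S288c. Across all genes the signs were the same, with -0.324, -0.0593, -0.23 and -0.109, and 0.286, 0.0609, 0.164 and 0.0465, in that order of strains. In ethanol rho for the difference of YPS163 was 0.335 across the members and 0.436 across all genes. The part of length in the calls of single strains was not tested. In M1 the median salt change was -0.86 for the 10 members under 1000 bp, -0.30 for the 24 of 1000 to 2500 bp and 0.26 for the 11 longer ones. For the mean ethanol change rho was -0.182, against -0.0673 for all genes. The points share their libraries, and the values are a description.

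The promoter classes of the members, read in the reference genome of S288c, were compared in the same way. In the mean ethanol response the medians were -3.97 for the 32 genes with both cores, -4.11 for the 8 with GATGAG alone, -3.87 for UTP4 and UTP15 with AAAATTTT alone, and -3.46 for the 3 with neither. In wild type of the mutant experiment, the 5 members with GATGAG at least 3 times (DHR2, ENP2, HCA4, NOC4 and UTP8) had a median ethanol change of -6.29, with a range of -7.52 to -2.66. The 10 members with 2 copies had -3.64 and the 25 with 1 copy -3.20. In the mean over the 8 strains the 5 genes had -4.25, close to the median of all members, -4.00.

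Other genes of ribosome synthesis changed alongside. In the mean ethanol response 36 of 36 other 40S assembly factors (median -3.91), 52 of 52 60S assembly factors (-4.51), 4 of 4 box H/ACA snoRNP genes (-3.34), 8 of 8 genes of RNA polymerase I (-4.05) and 56 of 56 genes for 40S ribosomal proteins (-1.49) were called lower, beside 40.8% of all genes tested. In salt 36, 51, 4, 7 and 55 of them were, with medians of -1.42, -1.35, -1.22, -0.79 and -1.01, beside 41.9% of all genes. The ribosomal protein genes thus had a smaller median in ethanol than any of the assembly lists. Among 9 known regulators of these genes, TOD6, a repressor that binds PAC, fell (-4.13 ± 0.07) as did IFH1, a coactivator of ribosomal protein genes (-3.13 ± 0.08), SCH9, FHL1 and SFP1, whereas the repressors STB3 (1.00 ± 0.05) and DOT6 (1.00 ± 0.06) rose with TOR1, and TOR2 was not called.

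In the strains and mutants that differed, the neighbouring lists moved in part with the processome genes. In S288c in ethanol, 51 of 52 60S factors fell by less than the mean of strains (median 2.45), as did 35 of 36 other 40S factors (2.29) and 21 of 56 ribosomal protein genes (0.55), against a background of 22.9%. In M22 in ethanol, 39 of the 60S factors and 26 of the other 40S factors fell by more (-1.23 and -1.03, background 10.7%), and the ribosomal protein genes had a median of 0.09. In M1 in salt, 42, 24 and 30 genes of these lists fell by less (0.95, 0.69 and 0.60, background 17.4%). In M22 in salt, 31 and 18 genes of the 60S and other 40S lists fell by more (-0.67 and -0.62, background 11.2%). In msn2/4 in ethanol, 30 of 52 60S factors, 13 of 36 other 40S factors and 18 of 56 ribosomal protein genes fell by less than in wild type (0.65, 0.58 and 0.41, background 8.26%). In skn7 in salt, 24, 8 and 30 genes of these lists did (0.47, 0.26 and 0.53, background 8.39%). In yap1 in salt, 51 of 56 ribosomal protein genes fell by less than in wild type (0.71, background 7.78%), opposite in sign to the processome genes. The 60S factors had a median of -0.33 there, with 6 called lower (background 4.89%).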

How the data were processed

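RNA-seq counts of 119 libraries were analysed, 71 from 8 strains and 48 from YPS606 and its 3 deletion mutants. The expected counts per gene were deposited by the authors, who per the submitters' processing notes and the study's methods trimmed reads, aligned them with STAR 2.6.1 to strain references built from the S288c genome (sacCer3, R64) with Bowtie2 2.3.4.1 and GATK, and estimated counts with RSEM 1.3.1, which can divide reads between similar genes. These estimates, rounded to integers, were fitted per experiment in edgeR 4.0.16 (R 4.3.3) with TMM factors, the quasi-likelihood method of edgeR 3 and the replicate number as a block, as in the study's methods. A gene was tested where any group averaged 1 CPM or more (6090 and 5748 genes), and calls are at a Benjamini-Hochberg false discovery rate of 0.01 over all of them. Contrasts gave each response, its difference from the mean of 8 strains and each mutant's difference from wild type. Total counts had medians of 11859145 and 13607841.5 per library, and at levels under 1 CPM counting error is large. The fits were tested on simulated data with known changes. Residuals of libraries with the same number correlated by 0.0755 within a culture and 0.0624 between cultures in the strain experiment (0.0887 and 0.0697 in the mutants). The pairing comes from the shared culture in the study's methods.

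The alternatives were RLE size factors, library totals, DESeq2 1.42.0, the edgeR 4 method, no filter or a mean of 10 CPM, no block, other thresholds and leaving out libraries. Figures and summaries used Python 3.11.15, numpy 2.4.6, pandas 2.3.3 and matplotlib 3.10.9. Sequences are from the RefSeq R64 genome. Per comparison and role, the members with the lowest and highest change were named, and members whose call differed from most where these were 10 or fewer. Values in every sample were given for the 3 members with the most and the 3 with the least negative mean ethanol response, those on chromosome XI, and the 2 lowest and 2 highest unstressed levels per kb. Genes named beyond this were chosen after their values were seen. The members and lists were chosen with earlier results of these data known. The regulators are given with fitted changes or directions of single genes, and the assembly factors and other lists as counts and medians only.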

Additional observations from a re-analysis of the deposited data

Results flagged for a closer look

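In 6 comparisons of a strain or a mutant with its reference, most of the 45 genes were called in the same direction. The test was of the difference itself, the contrast of responses within the edgeR fit at a false discovery rate of 0.01. Comparisons with fewer members called are not listed here. In the strain experiment, 44 of the 45 processome genes fell by less in S288c in ethanol than in the mean of 8 strains (22.9% of all genes tested did), and 41 fell by less in M1 in salt (17.4%). In M22, 39 genes fell by more in ethanol (10.7%) and 32 by more in salt (11.2%), the latter 12 without replicate 1 and 15 without replicate 2. In the mutant experiment, 24 genes fell by less in msn2/4 than in wild type in ethanol (8.26%), and 23 by less in skn7 in salt (8.39%), which without a single replicate number came down to as few as 14 and 10. The strains are compared with a mean that contains the strain itself.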

How the results depend on the processing

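In the comparisons recomputed gene by gene, 0 values reversed among members called in the main fit or in the alternative. Sign changes of values called in neither were not recorded. The summary counts were compared in size alone. Of the summary counts recomputed, 222 stayed within 1.5 times, 28 were lower and 5 higher. With library totals in place of TMM, the salt differences of strains fell from 102 to 41, those of M1 from 41 to 18, of M22 from 32 to 13 and of skn7 from 23 to 5, while those of yap1 rose from 8 to 18. The cause was not tested. In ethanol this scaling moved the median of all genes from 0.05 to -0.13 and that of the members from -4.00 to -4.18. At a false discovery rate of 0.05 the counts were 80 for unstressed levels (46 at 0.01), 96 for mutant differences (56), 37 for msn2/4 and 20 for yap1. With a limit of 1.5-fold they were 4, 33, 13 for skn7 and 3 for yap1.

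Leaving out a replicate number gave 53 to 81 salt differences, 10 to 22 unstressed differences, 29 to 38 mutant differences, 31 to 37 for M1 and 12 to 28 for M22 in salt, 5 falls in M1 salt each time, 14 to 20 for msn2/4, 10 to 20 for skn7 and 2 to 11 for yap1. The ethanol differences gave 126 to 161 of 181, M22 in ethanol 31 to 37 of 39, and the salt calls in single strains 249 to 274 of 303. Leaving out the Y10 salt library of replicate 1 alone gave 97, 44, 41 for M1, 31 for M22, 11 falls in M1 and 301 salt calls, and leaving out the YPS606 ethanol library of replicate 3 alone gave 192 ethanol differences and 40 for M22. Without the replicate block 45 members were called in both mean responses, with 44 for S288c, 38 for M22 in ethanol, 39 for M1 in salt, 22 for msn2/4, 20 for skn7 and 7 for yap1, so the block moved no count by over 1.5 times.

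With 3 or 4 cultures, differences well under 1.5-fold rest on few libraries. Ethanol levels under 1 CPM, as for DHR2, rest on few counts, and their fold changes are imprecise.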
